A study of Rattus norvegicus with 10 samples.

Results

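The transcripts described here encode 9 proteins of pyroptosis and necroptosis, the pair of lytic forms of programmed cell death: Nlrp3, Pycard, Casp1, Casp4, Gsdmd, Casp8, Ripk1, Ripk3 and Mlkl. They were chosen by name, as the rows of the deposited table that carry these gene symbols, and each symbol stood beside 1 row of 32623. The list was set with earlier results of these data known, which limits every comparison below with all genes. All 9 had a mean of at least 10 normalized counts, the minimum for a test. The tissue was the supraoptic nucleus, a hypothalamic nucleus of vasopressin and oxytocin neurons, from male Sprague-Dawley rats. Per the labels, one nucleus of each rat received an adeno-associated virus carrying a short hairpin RNA against Opn3, which encodes the light-sensitive receptor opsin 3, and the opposite nucleus received one whose hairpin was non-targeting. The nuclei were punched out 2 weeks later and extracted singly, giving 5 shOpn3 and 5 shControl samples. Both groups had thus received a virus and a hairpin. The promoter of the hairpin, the cells it entered, the ages of the rats and which side received which virus are not given in the sources used here.

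In pyroptosis, a sensor such as NLRP3 joins the adaptor ASC (the product of Pycard) and caspase-1 into an inflammasome, which matures interleukin-1β and interleukin-18 and cuts gasdermin D into a pore-forming fragment. Caspase-4, called caspase-11 in rodents, cuts gasdermin D without that complex after sensing bacterial lipopolysaccharide. In necroptosis, RIPK1 and RIPK3 bind each other and RIPK3 activates MLKL, which breaches the plasma membrane, while caspase-8 holds this route in check. In the brain, inflammasome components are best known from microglia, the resident macrophages.

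Of the 9 transcripts, 8 were higher in shOpn3 with an adjusted p under 0.05 and 0 were lower (limma, Benjamini-Hochberg adjustment over 15597 genes). Among all genes tested, 10.4% were called higher and 8.48% lower. Gsdmd was the member without a call. The median log2 fold change of the 9 was 0.87, against -0.02 for all genes tested. With the replicate number as a block, 8 of the 9 were again called higher, where 15.1% of all genes were called higher and 15.2% lower. All 9 were higher in shOpn3 in each of the 5 same-numbered pairs, a pattern found in 18.7% of all genes, and pair by pair the ratio ran from 1.09-fold to 3.95-fold. For 7 of the 9, every shOpn3 sample lay above every shControl sample, which held for 8.03% of all genes. The authors' deposited table listed all 9 as higher with an adjusted p under 0.05, as it did 11.4% of the 17437 genes to which it gave an adjusted p.

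The samples themselves were first checked. Recovered reads ran from 33158341 to 39958578 per sample, and a member had between 78 and 1527 reads in a sample. Opn3 ranged from 261 to 1007 normalized counts in shControl and from 145 to 290 in shOpn3, a log2 change of -1.82 with SE 0.320 (adjusted p by limma 0.00226), with overlap because shControl replicate 5 was low. The tissue markers Avp and Oxt were found in every sample, with at least 4619 and 3810 normalized counts. Both were lower in shOpn3, by log2 fold changes of -2.35 and -2.21 (limma adjusted p = 0.00269 and 0.000915), a larger fall than that of Opn3. In whole punches, differences in tissue content cannot be told apart from knock-down in the Opn3 values.

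Promoter sequence was looked at because all 9 members were higher in all 5 pairs, a pattern found in 18.7% of all genes. RefSeq (assembly GRCr8) gave a window of 250 bases before to 50 bases after the transcription start for 6 of the 9: Casp1, Mlkl, Nlrp3, Pycard, Ripk1 and Ripk3. The build behind the deposited table is not given in the sources used here, so members were matched by symbol. After the sequences had been read, 4 motifs were searched on both strands: the interferon-stimulated response element GAAANNGAAA, the interferon-gamma activated site TTCNNNGAA, the AP-1 site TGANTCA and the κB site GGGNNTTTCC. The stretches with a match are printed 5′ to 3′ on the strand of the gene, with the match in capitals. They lie at chr8:10872730-10872829 on the plus strand for Casp1, chr10:44827932-44828031 on the plus strand for Nlrp3 and chr15:33262036-33262135 on the minus strand for Ripk3.
Casp1: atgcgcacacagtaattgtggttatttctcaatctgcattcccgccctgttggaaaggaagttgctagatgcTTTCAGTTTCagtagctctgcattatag
Nlrp3: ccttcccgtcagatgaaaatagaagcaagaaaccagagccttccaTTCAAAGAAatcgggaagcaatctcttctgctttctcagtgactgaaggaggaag
Ripk3: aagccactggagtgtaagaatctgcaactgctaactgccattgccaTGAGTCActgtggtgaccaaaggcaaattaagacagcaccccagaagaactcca
The Casp1 match begins 28 bases before the start and is the interferon-stimulated response element read on the opposite strand. The Nlrp3 match, an interferon-gamma activated site, begins 121 bases before the start, and the AP-1 match of Ripk3 begins 64 bases before it. Each of these 3 motifs was found in 1 of the 6 windows, and the κB letters in 0 of 6. Over all 33469 promoter windows of the same length, the shares were 3.92% for the interferon-stimulated response element, 8.87% for the interferon-gamma activated site, 7.33% for AP-1 and 1.53% for κB. These matches are descriptions of the letters, and no binding was measured.

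The inflammasome trio of sensor, adaptor and protease was higher in every shOpn3 sample than in any shControl sample. Nlrp3 (ENSRNOG00000003170), the sensor, had 221, 256, 178, 203 and 305 normalized counts in shControl replicates 1 to 5 and 375, 445, 577, 802 and 516 in shOpn3 replicates 1 to 5. The lowest knock-down sample lay above the highest control, and shOpn3 replicate 4 stood highest. Its means were 233 ± 49.5 and 543 ± 163 (SD over 5 samples per group), a log2 rise of 1.20 with SE 0.200 (adjusted p by limma 0.00170). Normalized counts are reads divided by 1 size factor per sample. All log2 differences between groups were taken after 1 was added to the normalized count.

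Pycard (ENSRNOG00000019675), whose protein ASC bridges sensor and caspase, had 113, 118, 112, 161 and 184 normalized counts in shControl and 184, 202, 367, 515 and 340 in shOpn3. The groups touched without overlapping, since the highest control (183.6) lay just under the lowest knock-down sample (184.2). Pycard rose from 138 ± 32.7 to 322 ± 135 (SD over 5 samples per group), by 1.14 on the log2 scale with SE 0.269 (adjusted p by limma 0.0109).

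Casp1 (ENSRNOG00000007372), the caspase that matures interleukin-1β, had 230, 327, 346, 347 and 307 normalized counts in shControl and 364, 566, 688, 815 and 501 in shOpn3. Replicate 1 was the lowest sample of both groups. The mean rose from 311 ± 48.2 to 587 ± 173 (SD over 5 samples per group), by 0.87 on the log2 scale with SE 0.198 (adjusted p by limma 0.00900). For Nlrp3, Pycard and Casp1 alike, an exact permutation test, two-sided and on log2 values, gave p = 0.00794, the smallest that 5 against 5 samples allow. That test ignores the pairs of equal number. An exact two-sided sign-flip test over the 5 pairs gave p = 0.0625 for each of the 9 members. With 5 pairs that test can give no smaller value.

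Casp4 (ENSRNOG00000033697), the lipopolysaccharide-sensing caspase, had the highest fold change of the 9. It had 328, 417, 472, 405 and 401 normalized counts in shControl and 687, 886, 1427, 1429 and 974 in shOpn3. The lowest knock-down sample was well above the highest control, and replicates 3 and 4 were nearly equal at the top. The means were 405 ± 51.5 and 1080.4 ± 334 (SD over 5 samples per group), which is 1.37 apart on the log2 scale with SE 0.191 (adjusted p by limma 0.000682). Casp1 and Casp4 are related genes that neighbour each other in RefSeq, and whether the counting used strand is not given in the sources used here, so a mixing of their reads was not tested.

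Gsdmd (ENSRNOG00000007728), the substrate of both caspases and the pore former of pyroptosis, did not pass the test. It had 360, 303, 218, 242 and 383 normalized counts in shControl and 392, 335, 398, 546 and 446 in shOpn3. The groups overlapped, because shOpn3 replicate 2 lay below shControl replicates 1 and 5. The means were 301 ± 71.5 and 423 ± 79.0 (SD, n = 5 each), with a log2 fold change of 0.50 and a 95% interval of 0.12 to 0.88 (limma adjusted p = 0.0660, or 0.0516 in the blocked fit). Within pairs the ratio was 1.82 and 2.25 for replicates 3 and 4, and 1.09, 1.10 and 1.16 for replicates 1, 2 and 5. The call depended on the method: adjusted p was 0.0380 in the authors' deposited table, 0.0357 with DESeq2 on the recovered reads and 0.0432 after quantile normalization. It was 0.0343 in limma without shControl replicate 5 and 0.0474 without shOpn3 replicate 2, and ran from 0.00510 (limma-voom with sample quality weights) to 0.144 over 21 alternative fits.

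**Figure D1:**
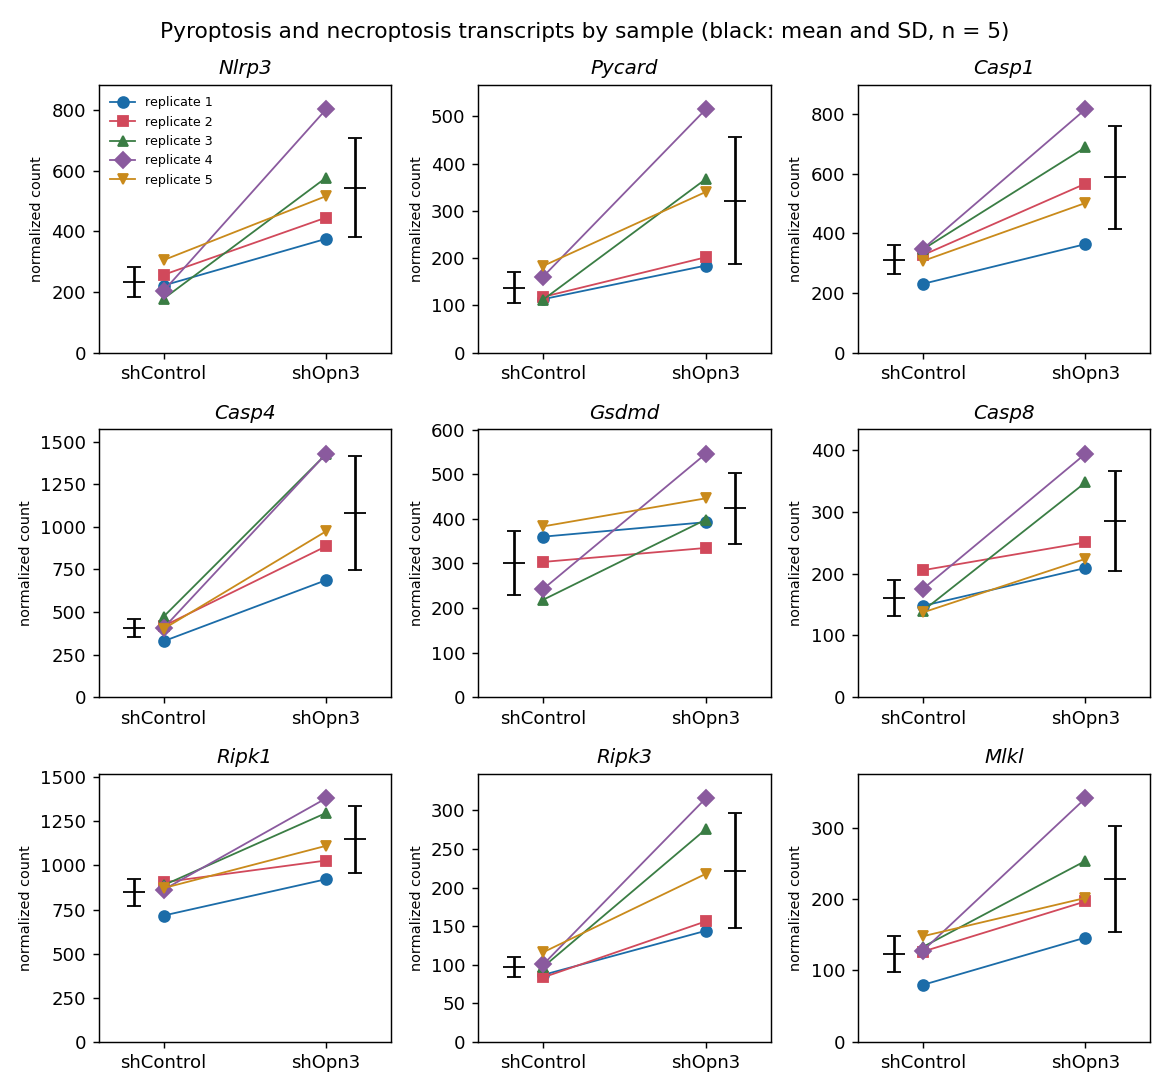
Normalized counts of the 9 transcripts, 1 panel each, with shControl on the left and shOpn3 on the right of each panel. Lines join same-numbered samples, and black bars give the mean and SD of 5 samples. Every line rises, and shOpn3 replicate 4 is the highest knock-down sample in all 9 panels.

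At the branch point between survival, apoptosis and necroptosis, both regulators were higher in shOpn3. Casp8 (ENSRNOG00000012331), the protease that cuts RIPK1 and RIPK3, had 148, 206, 140, 175 and 137 normalized counts in shControl and 209, 251, 348, 394 and 224 in shOpn3. The gap between the groups was narrow, with 206 as the highest control and 209 as the lowest knock-down sample. Casp8 rose from 161 ± 29.0 to 285 ± 81.4 (SD over 5 samples per group), by 0.79 on the log2 scale with SE 0.191 (adjusted p by limma 0.0126).

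Ripk1 (ENSRNOG00000017787), the kinase and scaffold downstream of tumour necrosis factor receptors, had the lowest fold change of the 9. Its normalized counts were 716, 905, 888, 862 and 871 in shControl and 922, 1028, 1298, 1381 and 1112 in shOpn3. The groups did not overlap, although shControl replicate 2 and shOpn3 replicate 1 lay close together. Ripk1 rose from 848 ± 75.9 to 1148 ± 190 (SD over 5 samples per group), by 0.43 on the log2 scale with SE 0.116 (adjusted p by limma 0.0234). The call was lost without shControl replicate 1 (limma adjusted p = 0.0507), shOpn3 replicate 3 (0.0685) or shOpn3 replicate 4 (0.0525), the adjusted p over 21 alternative fits being 0.00390 to 0.0685.

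The necroptotic effectors followed. Ripk3 (ENSRNOG00000020465), the kinase that activates MLKL, had 86.7, 83.4, 96.9, 100.2 and 116 normalized counts in shControl and 144, 156, 276, 316 and 218 in shOpn3. No samples overlapped, and the controls spanned a much smaller range than the knock-down samples. The means were 96.7 ± 12.9 and 222 ± 74.4 (SD over 5 samples per group), which is 1.13 apart on the log2 scale with SE 0.214 (adjusted p by limma 0.00335).

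Mlkl (ENSRNOG00000042353), the membrane-breaching pseudokinase, had 79.5, 126, 133, 127 and 148 normalized counts in shControl and 146, 196, 253, 341 and 201 in shOpn3. The overlap was slight, with shControl replicate 5 (148) above shOpn3 replicate 1 (146). The mean rose from 123 ± 25.6 to 228 ± 73.9 (SD over 5 samples per group), by 0.86 on the log2 scale with SE 0.226 (adjusted p by limma 0.0195). The exact two-sided permutation test gave p = 0.0159, and without shOpn3 replicate 3 the call was lost (limma adjusted p = 0.0552, in a range from 0.00135 over 21 alternative fits).

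**Figure D2:**
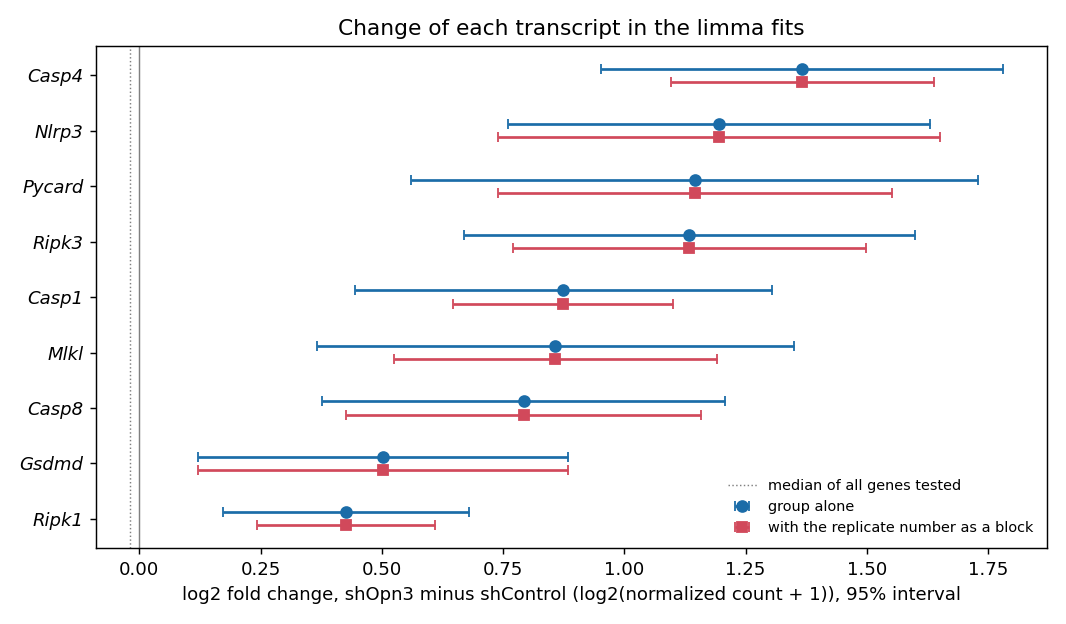
Log2 fold change (shOpn3 minus shControl) of each transcript with its 95% interval in the limma fit with the group alone (circles) and in the fit blocked on replicate number (squares). Casp4 is at 1.37 and Ripk1 at 0.43, and the dotted line marks the median of all genes tested, -0.02.

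Ratios show whether related members changed by equal amounts. Apart from the 1 added to each normalized count, log2 ratios of 2 transcripts within a sample do not depend on the scaling. With the same limit, the change of a ratio between groups does not depend on transcript length. After the values had been seen, 4 such ratios were compared between groups with exact permutation tests, two-sided, and with Benjamini-Hochberg adjustment over the 4. That adjustment does not cover the choice of the ratios, made with the fold changes known, so their p-values are descriptive. The ratio of Casp4 to Casp1 was 0.38 ± 0.11 in shControl and 0.88 ± 0.16 in shOpn3 on the log2 scale (SD, n = 5 each), with no overlap (exact p = 0.00794, adjusted p = 0.0159). Casp4 was thus higher relative to Casp1 in 5 of 5 pairs.

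The ratio of Ripk3 to Ripk1 was -3.13 ± 0.20 in shControl and -2.42 ± 0.26 in shOpn3 on the log2 scale, also with no overlap (SD, n = 5 each; exact permutation p = 0.00794, adjusted p = 0.0159) and higher in 5 of 5 pairs. The remaining ratios overlapped between the groups. Nlrp3 to Pycard differed by 0.05 between the groups (exact permutation p = 0.817, adjusted p = 0.817), with pair differences from -0.13 to 0.30. Mlkl to Gsdmd differed by 0.35 (exact permutation p = 0.246, adjusted p = 0.328), with pair differences from 0.06 to 0.74, higher in 5 of 5 pairs. None of these ratio tests uses the pairs, and a test over 5 pairs cannot go below an exact p of 0.0625.

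The members varied together from sample to sample as well. Within shOpn3, replicate 4 was the highest sample for 9 of 9 members and replicate 3 the second for 8 of 9, while replicate 1 was the lowest for 8 of 9, with Gsdmd as the exception. The control samples showed no such order, with replicate 5 the highest for 5 of 9 and replicate 1 the lowest for 4 of 9. Over the 36 pairs of members, the correlation of log2 values across the 10 samples ran from 0.54 to 0.98 with a median of 0.91. After removal of the group means it ran from -0.02 to 0.96 with a median of 0.75. These coefficients come from samples that share libraries and groups and are given as a description. How many of all genes show the same order of samples, or like correlations, was not computed. Neither the order nor the correlations can therefore be called particular to the members.

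The 5 genes whose log2 values over the 10 samples were most like the mean z-score of the 9 members were Lcp1 (Pearson r = 0.994), Sp110 (0.992), Akap13 (0.992), Trim5 (0.992) and Arhgap30 (0.991). Lcp1 encodes the leukocyte actin bundler L-plastin. It had 2184, 2630, 2445, 2431 and 2737 normalized counts in shControl and 3679, 3742, 5319, 6703 and 4296 in shOpn3. Its order within shOpn3 was that of most members, with replicate 4 highest and replicate 1 lowest.

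Microglial markers moved with the members, while markers of other cell types went both ways. As a background for each marker list, 10.4% of all genes tested were called higher and 8.48% lower. With the replicate block the shares were 15.1% and 15.2%. Of 11 microglial markers tested, 9 were higher in shOpn3 and 0 lower (limma, adjusted p under 0.05), with a median log2 fold change of 0.98. Sall1 (log2 fold change 0.22) and Tmem119 (0.69) were the markers tested without a call. Tmem119 was called with the replicate block (limma adjusted p = 0.0386, against 0.0511 without it), and 10 of the 11 were called with the block, by edgeR and by DESeq2. Siglech, at 12.6 normalized counts or fewer, was not tested. The summed level of the list was 17288 to 21668 normalized counts in shControl and 26800 to 51816 in shOpn3. Its mean log2 level, called the microglial score here, was 9.88 to 10.35 in shControl and 10.64 to 11.59 in shOpn3, with replicate 4 again the highest knock-down sample, although replicate 2 was the lowest. In whole punches, more cells of a type and more RNA per cell cannot be told apart.

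Relative to the microglial score, the members fell on both sides. The log2 level of a member minus the score was higher in shOpn3 for 4 of 9 (Casp4, Nlrp3, Pycard and Ripk3) and lower for 5 of 9 (Casp1, Mlkl, Casp8, Gsdmd and Ripk1), and the groups overlapped for 8 of the 9. These differences are given without a test, and the share of all genes on each side was not computed. The score itself rose by 0.98, while the median log2 fold change of all genes tested was -0.02. A gene with no change would therefore lie lower relative to the score in shOpn3. Casp4 stood 0.38 higher relative to the score in shOpn3, in 5 of 5 pairs, and Nlrp3 0.21 higher, in 4 of 5 pairs. Gsdmd did not overlap: it lay 1.74 to 2.11 below the score in shControl and 2.24 to 2.64 below it in shOpn3. Ripk1 was lower relative to the score by 0.56, in 5 of 5 pairs. In their own counts, Gsdmd and Ripk1 were higher in shOpn3, by log2 fold changes of 0.50 and 0.43. The part of the microglial markers in the rise of the members was not tested.

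**Figure D3:**
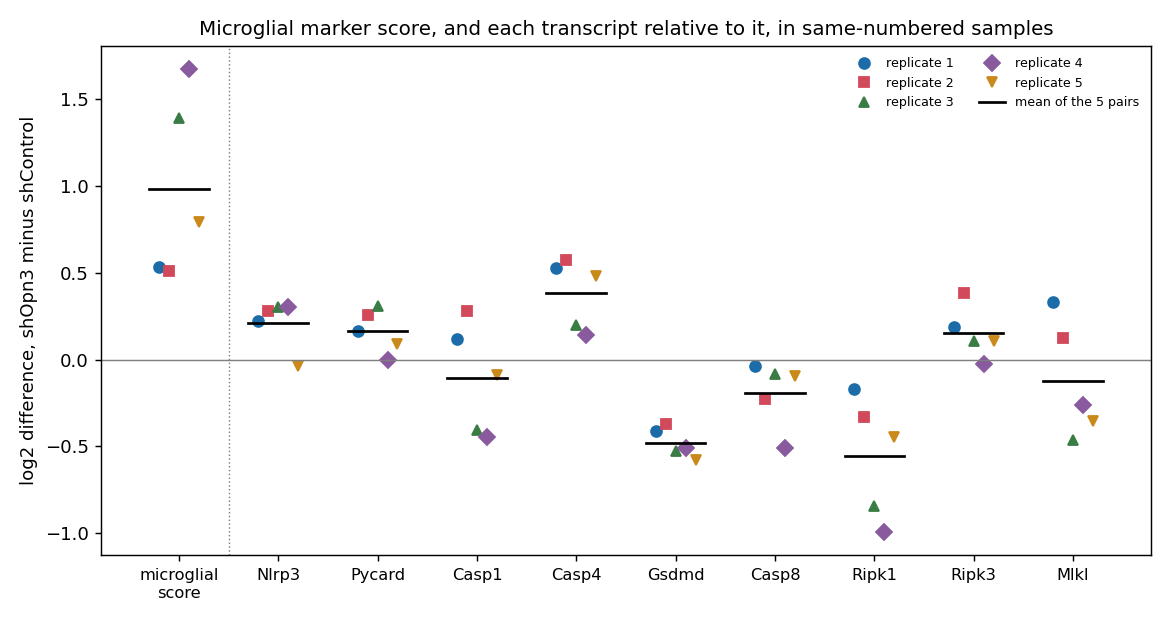
Log2 difference (shOpn3 minus shControl) in each same-numbered pair for the microglial score, left of the dotted line, and for each transcript relative to that score, right of it. Black lines are the means of 5 pairs. The score rose in all 5 pairs, Casp4 lies above 0 in every pair, and Gsdmd, Casp8 and Ripk1 lie below 0 in every pair.

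Markers of other cell types were followed in the same way. Of 6 T cell markers tested, 4 were higher (limma, adjusted p under 0.05), and the summed level of that list was 175 to 270 normalized counts in shControl and 241 to 573 in shOpn3. Of 5 markers of neutrophils and monocytes tested, Plac8 and Csf3r were higher (log2 fold change 1.84 and 1.40), with summed levels of 434 to 968 in shControl and 828 to 3318 in shOpn3. The neutrophil markers S100a8 and S100a9 had log2 fold changes of -0.61 and -0.25 (limma adjusted p = 0.427 and 0.773), and Elane was listed at 0 in all samples. Of 8 astrocyte markers 3 were higher, with Gfap at 1.10 on the log2 scale, and summed levels were 287861 to 386001 in shControl and 337345 to 475458 in shOpn3. Of 8 oligodendrocyte markers 8 were lower, from 731561 to 1244840 in shControl against 248955 to 470326 in shOpn3. Of 9 neuronal markers 4 were lower (Avp, Oxt, Elavl4 and Uchl1) and 1 was higher (Rbfox3, log2 fold change 0.62, limma adjusted p = 0.00902). Among the 4 without a call, Snap25, Syt1 and Map2 had log2 fold changes of 0.41, 0.37 and 0.07. Tubb3 had -0.38 (limma adjusted p = 0.164, and 0.00850 with the block). Of 7 markers of endothelium and blood, 0 were called by limma, edgeR or DESeq2, and 0 had an unadjusted limma p under 0.05. With the block, 1 of them (Slco1a4) was called. The part of these cells in the result was not tested.

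The wider pathway was followed in 6 lists with 65 genes, of which 56 could be tested. Of these, 24 were higher and 1 was lower in shOpn3 (limma, adjusted p under 0.05), with a median log2 fold change of 0.25. With the replicate number as a block, 28 were higher and 3 lower. Over all genes tested, 10.4% were called higher and 8.48% lower without the block. With it the shares were 15.1% and 15.2%. The same shares are the background for each list below.

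Among inflammasome sensors and their regulators, 5 of 7 tested were higher and 0 lower (median log2 fold change 1.04). Nlrc4, the sensor that answers to flagellin through NAIP proteins, rose from 89.1 ± 5.49 to 258 ± 75.4 normalized counts (SD over 5 samples per group), by 1.47 on the log2 scale with SE 0.186 (adjusted p by limma 0.000411). Nlrp1a, another inflammasome sensor, rose by 1.04 (SE 0.175), Mefv, which encodes pyrin, by 1.57 (SE 0.319), and P2rx7, the ATP-gated channel that triggers NLRP3, by 0.71 (SE 0.186; limma adjusted p = 0.0185), a call lost without shOpn3 replicate 3 (limma adjusted p = 0.0536, in a range from 0.000637 over 21 alternative fits). Aim2, the sensor of cytosolic DNA, was the other gene called. Nek7, a partner of NLRP3, had a log2 fold change of -0.13 (95% interval -0.31 to 0.05) and Txnip one of 0.14 (-0.23 to 0.52).

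Products of the pathway were mixed. Of 11 cytokine, gasdermin and rupture genes, 5 were higher and 1 was lower (median 0.36). Il1b, whose product caspase-1 matures, had 38.7, 33.6, 45.9, 65.5 and 67.5 normalized counts in shControl and 79.6, 273, 266, 195 and 158 in shOpn3. All knock-down samples lay above all controls, by a small margin for replicate 1 and a wide one for the others. Il1b rose by 1.86 in log2 units, with SE 0.325 (adjusted p by limma 0.00216).

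Transcripts of proteins that oppose these cytokines rose too: Il1rn, the interleukin-1 receptor antagonist, by 0.90 (SE 0.223, limma adjusted p = 0.0145) and Il18bp, the interleukin-18 binding protein, by 0.62 (SE 0.131, limma adjusted p = 0.00609). Il33, an alarmin of the interleukin-1 family, rose by 0.36 (SE 0.0846), and Il1a was also called higher. Il18 had a log2 fold change of 0.52 (limma adjusted p = 0.0789, and 0.0442 with the block). Among the other gasdermins, Gsdma was lower at few counts (14.9 ± 4.72 against 5.90 ± 1.66; SD, n = 5 each). Its call held in the 17 of 21 alternative fits that tested it; without shControl replicate 1, 2 or 3, or with a minimum mean of 50, it fell under the filter and was not tested. Gsdme had a log2 fold change of 0.10 (95% interval -0.09 to 0.29). Ninj1, which ruptures the membrane after the pores have formed, had 0.19 (-0.18 to 0.56).

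Upstream of RIPK1 and RIPK3, 6 of 9 death receptors, ligands and sensors were higher and 0 lower (median 0.74). Zbp1, a sensor of Z-form nucleic acid that binds RIPK3, had 13.3, 13.2, 25.5, 9.36 and 16.9 normalized counts in shControl and 43.2, 57.4, 143, 261 and 111 in shOpn3. No samples overlapped, and its log2 change of 2.68, with SE 0.436 and an adjusted p by limma of 0.00146, was the highest of the 56 pathway genes tested. Fas, the death receptor, rose from 133 ± 15.2 to 294 ± 56.8 (SD over 5 samples per group), by 1.12 on the log2 scale with SE 0.151 (adjusted p by limma 0.000575). Tnfrsf1b rose by 0.91 (SE 0.151) and Tlr4 by 0.74 (SE 0.134), and Tnfrsf1a and Tlr3 were called as well. Tnf was listed at 0 in every sample and was not tested. Whether its transcript was absent or missed by the counting cannot be told from these values. Faslg, at 23.6 normalized counts or fewer, was not called.

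Among the partners and checkpoints of RIPK1, 5 of 19 tested were higher and 0 lower (median 0.15). Birc3, a ubiquitin ligase that marks RIPK1, rose from 75.6 ± 13.0 to 188 ± 27.1 normalized counts (SD over 5 samples per group), by 1.31 on the log2 scale with SE 0.162 (adjusted p by limma 0.000398). Tnfaip3, which encodes the ubiquitin editor A20, rose by 0.93 (SE 0.136; limma adjusted p = 0.000812) and Cyld, a deubiquitinase of RIPK1, by 0.52 (SE 0.0851; limma adjusted p = 0.00151). Tab2, a partner of the kinase TAK1, rose by 0.24 (SE 0.0670; limma adjusted p = 0.0269), a call that was lost in 7 of the 10 fits leaving out 1 sample. Cflar, which encodes the caspase-8 partner cFLIP, was the other gene called. Ubiquitin ligases and kinases of the same list without a call included Birc2 (log2 fold change 0.05), Xiap (0.11) and Tbk1 (0.05), and Sharpin had -0.23 (limma adjusted p = 0.183, and 0.0265 with the block). The adaptors Fadd and Tradd had log2 fold changes of 0.27 (95% interval 0.00 to 0.53) and 0.15 (-0.30 to 0.60).

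**Figure D4:**
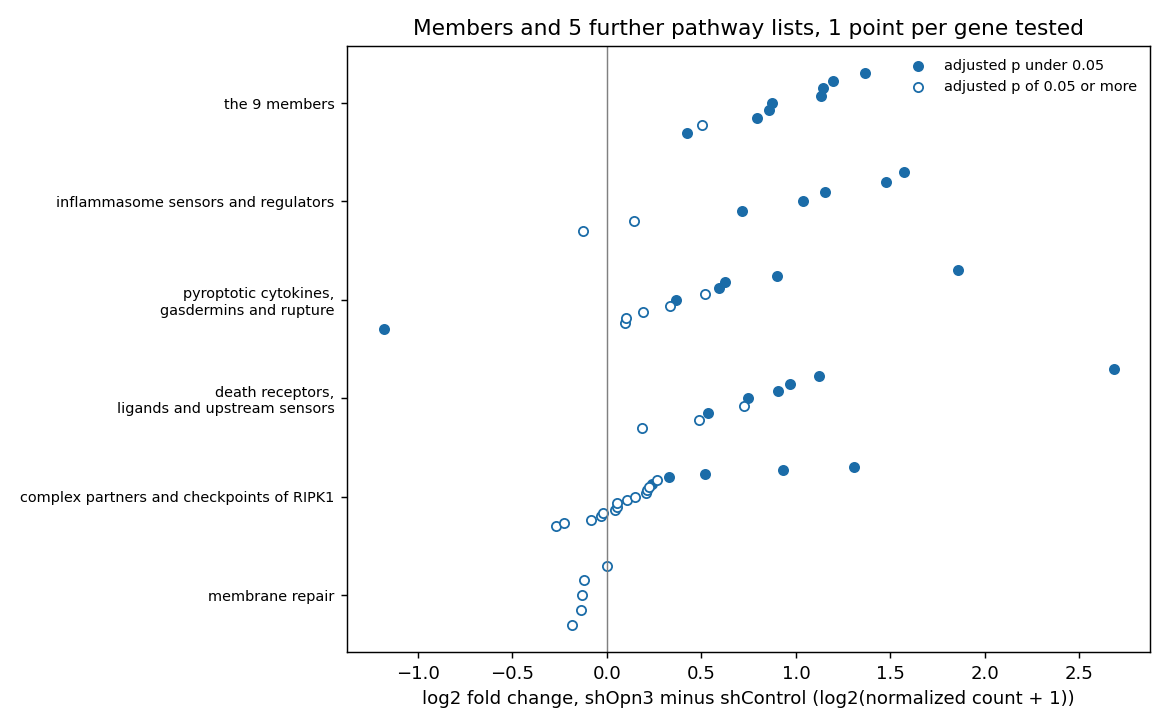
Log2 fold change (shOpn3 minus shControl) of each gene tested among the 9 members and 5 of the further pathway lists, 1 point per gene, filled where the limma adjusted p was under 0.05. Filled points lie to the right of 0 except Gsdma at -1.18, and membrane repair has none.

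The last pair of lists covered death without lysis and the repair of lytic damage. Apaf1, the scaffold of the apoptosome, rose by 0.55 (SE 0.107; limma adjusted p = 0.00400). Of 5 membrane repair genes, parts of the ESCRT machinery that sheds damaged membrane, 0 were called by limma or edgeR and 1 by DESeq2, with values from -0.19 to 0.00. At an unadjusted limma p under 0.05 there was 1, Chmp2a (log2 fold change -0.19), which the replicate block also called lower.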

How the data were processed

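RNA sequencing of 10 supraoptic nuclei was deposited as 1 table. Per the submitters' processing notes, FastQC, STAR, featureCounts and DESeq2 were used by the authors. Versions, genome build and strand setting are not given in the sources used here. The deposited signal per gene and sample is a read count divided by 1 size factor (0.942 to 1.07). Whole reads were recovered for 100% of the positive values of each sample, as whole multiples of the smallest one (tolerance 0.01). Per the file headers, the table also holds the authors' log2 fold change and its error, a Wald score, and the p-value and adjusted p-value.

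The 9 members and all gene lists were chosen with earlier results of these data known. Groups were compared with limma 3.58.1 (R 4.3.3, lmFit and eBayes with trend) on log2(normalized count + 1) over the 15597 genes with a mean of at least 10, two-sided, with Benjamini-Hochberg adjustment over all of them and a threshold of 0.05. The fits were tested on simulated data drawn without differences between rats. That test thus does not show how the fit by group alone behaves when nuclei of the same rat are alike. In it, DESeq2 was held to a looser limit on false calls than the other fits. Alternatives were other pseudocounts, filters and scalings, edgeR 4.0.16 and DESeq2 1.42.0 on the recovered reads, limma-voom with sample quality weights, the replicate block, and leaving out each sample. Of the 65 pathway genes, 4 were not found by name and 5 had too few reads. Named were the members, Opn3, Avp, Oxt, up to 4 called genes of each pathway list by lowest p, and the 5 genes most like the members. Other genes, named to account for a list, were chosen after their values were seen. Some genes of the apoptotic list are not reported here.

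Each rat gave both nuclei, per the labels, but no label ties equal numbers to 1 rat. After subtraction of the group means, samples with equal numbers correlated over genes in 5 of 5 pairs (r from 0.121 to 0.439). The 20 pairs with different numbers had a median of -0.206 and ran from -0.447 to 0.36. The lowest value for equal numbers was that of replicate 4. Its control correlated more with shOpn3 replicates 2 (0.238) and 3 (0.24), so the check does not single out that pair. With this limit, the numbers were taken to pair the samples in the pair differences and in the blocked fits. The main limma fit used the group alone. Its SE and adjusted p, like those of other fits without the block, treat the 10 nuclei as independent. Whether p-values cover separate rats rests on reading equal numbers as 1 rat.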

Additional observations from a re-analysis of the deposited data

Results flagged for a closer look

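Of 62 group values examined for the named genes, 3 showed 1 sample set far apart, its distance to the closest other sample being an unusual share of the range of its group. Chance gives about 1 in 20, or 3.1 here. Ripk1 in shControl replicate 1 was at 716 normalized counts, and the closest sample at 862. Oxt in shControl replicate 1 was at 56716, and the closest at 21354. Mefv in shControl replicate 5 was at 79.1, and the closest at 38.7.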

How the results depend on the processing

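In 21 alternative fits, the log2 fold change of each member kept its direction. Casp1, Casp4, Casp8, Nlrp3, Pycard and Ripk3 kept their call in all 21, with adjusted p of at most 0.0397. Ripk1 lost it in 3 and Mlkl in 1, each without a single sample, and Gsdmd gained it in 5. The 22 other named genes kept their direction in all 462 values and lost the call in 8, of which 7 were Tab2 and 1 was P2rx7. The number of members called ran from 6 (without shOpn3 replicate 3) to 9 and that of pathway genes from 20 to 33. Over all genes, 2940 were called. The count rose to 4726 in limma and 4777 in edgeR with the replicate block, and to 5085 with limma-voom and sample quality weights. Without single samples it ran from 1973 to 3057, and edgeR on the recovered reads called 3025. The block changed no call of a member. The ratio of Nlrp3 to Pycard changed sign without 1 sample in 3 cases, from 0.05 to between -0.06 and 0.14 (-0.0557 without shControl replicate 4, -0.0314 without shOpn3 replicate 2, -0.00264 without shOpn3 replicate 1). That of Mlkl to Gsdmd ran from 0.14 (without shControl replicate 1) to 0.50. The causes were not tested. Depth limits genes near the minimum of 10 normalized counts, such as Gsdma.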

Other observations

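The pairs differed in the ratio of Opn3 between the nuclei and in the differences of the members. In replicates 1 to 5, the Opn3 level left in shOpn3, relative to the control of equal number, was 40.3%, 27.9%, 18.9%, 15.3% and 55.6%. For the same pairs, the median log2 difference of the 9 members was 0.70, 0.77, 1.31, 1.41 and 0.71, and that of the microglial score was 0.54, 0.51, 1.39, 1.67 and 0.80. The 55.6% of replicate 5 comes with a low control: shControl replicate 5 had 261 normalized counts of Opn3, against 694 to 1007 in the other controls, while shOpn3 replicate 5 had the lowest Opn3 level of all samples, 145. The share of Opn3 left is thus no order of the knock-down level. For 9 of 9 members the highest difference lay in replicate 4 (7 members) or replicate 3 (2 members). With 5 pairs no relation was tested, and differences in tissue content between punches cannot be told apart from differences in knock-down.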
